A study of Mus musculus with 31 samples.

Results

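The 10 genes described here encode the signalling chains, coreceptors and companion molecules of the T cell receptor: Cd3d, Cd3e, Cd3g, Cd4, Cd8a, Cd8b1, Lck, Cd2, Cd5 and Foxp3. They were chosen by name, and all 10 were found among the 22609 genes of the count tables. The tables hold bulk RNA-seq of masseter muscle (MM) from 31 adult male C57BL/6J mice, 1 library per mouse. The left MM had been injected once. In the CFA experiment, 3 mice each were taken 1d and 5d after complete Freund's adjuvant (CFA, an oil suspension of killed mycobacteria that provokes inflammation), and 3 mice received vehicle (CFA vehicle). In the collagenase experiment, mice received collagenase type 2 (Col), an enzyme that digests extracellular matrix. In 2 groups of 4, mice received 0.2U; these are called 1C and RPC as in the labels, which do not give their days. The 10U dose was given to 4 mice labelled 2d, 3 labelled 6d and 4 labelled 12d, and 3 mice were vehicle controls (Col vehicle). No mouse is labelled as carrying a transgene or mutation, the collection day of the vehicle mice is not in the labels, and nothing was sorted, so every cell type of the dissected muscle contributed RNA.

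The T cell receptor recognises peptides on major histocompatibility complex (MHC) molecules but cannot signal by itself. The CD3 chains made from Cd3d, Cd3e and Cd3g, with the zeta chain made from Cd247, carry the signal into the cell. CD4 binds MHC class II and CD8, built from the products of Cd8a and Cd8b1, binds MHC class I, and both bring the kinase LCK to the receptor. CD2 is an adhesion receptor of T and NK cells, CD5 dampens receptor signals, and FOXP3 is the transcription factor that defines regulatory T cells. Healthy skeletal muscle holds few T cells, and more enter after injury, regulatory T cells among them. In mice CD4 is not confined to T cells, since some dendritic cells and macrophages also make it.

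The genes fall into a few chromosomal neighbourhoods in build mm9 with the GENCODE vM1 annotation. Cd3g (chr9:44777655-44788514, minus strand), Cd3d (chr9:44789876-44795135, plus strand) and Cd3e (chr9:44806826-44817673, minus strand) lie side by side, and 1362 bp separate Cd3g from Cd3d. Cd8b1 (chr6:71272830-71287471) and Cd8a (chr6:71323421-71329165) are neighbours on the plus strand, and Cd4 (chr6:124814710-124838239, minus strand) is on the same chromosome. Lck is at chr4:129225588-129250885, Cd2 at chr3:101079822-101091862 and Cd5 at chr19:10792633-10813464, all on the minus strand. Foxp3 (chrX:7156802-7172369, plus strand) overlaps 4930524L23Rik on the same strand, and Ccdc22 and Ppp1r3f on the opposite strand. Reads of the opposite-strand genes cannot be told from Foxp3 reads if strand was ignored in counting. Those of 4930524L23Rik are not separated from Foxp3 by strand in either case. The other 9 members overlap no annotated gene.

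These transcripts were scarce. The libraries held 14843778 to 29076671 gene counts each (median 20834472), and the 10 members together took 2915 of them over all libraries, which is 4.44 CPM (each library's counts scaled to a common total). Of 310 member values, 228 (73.5%) were under 10 counts and 53 were 0. A count of 10 has a counting error of 31.6%, and it amounts to between 0.344 and 0.674 CPM, depending on depth. Cd4 alone made up 1179 counts (40.4%), followed by Cd2 with 510 and Lck with 465. Cd8a had 170, Cd5 149, Cd3g 133, Cd3e 85, Cd8b1 84, Cd3d 75 and Foxp3 65 counts in all 31 libraries together. Per length, the mean over all libraries was highest for Cd2 (0.449 RPKM) and Cd4 (0.414 RPKM), followed by Lck (0.243 RPKM) and Cd3g (0.187 RPKM). Levels per mouse below are CPM scaled by edgeR's TMM method over all 31 libraries. A gene was tested in a comparison when at least 3 of its libraries held 10 counts or more, and was called when edgeR's quasi-likelihood test gave an adjusted p under 0.05. Cd3d, Cd3e, Cd3g, Cd8b1 and Foxp3 passed this filter in no comparison and are given as values only.

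**Figure D1:**
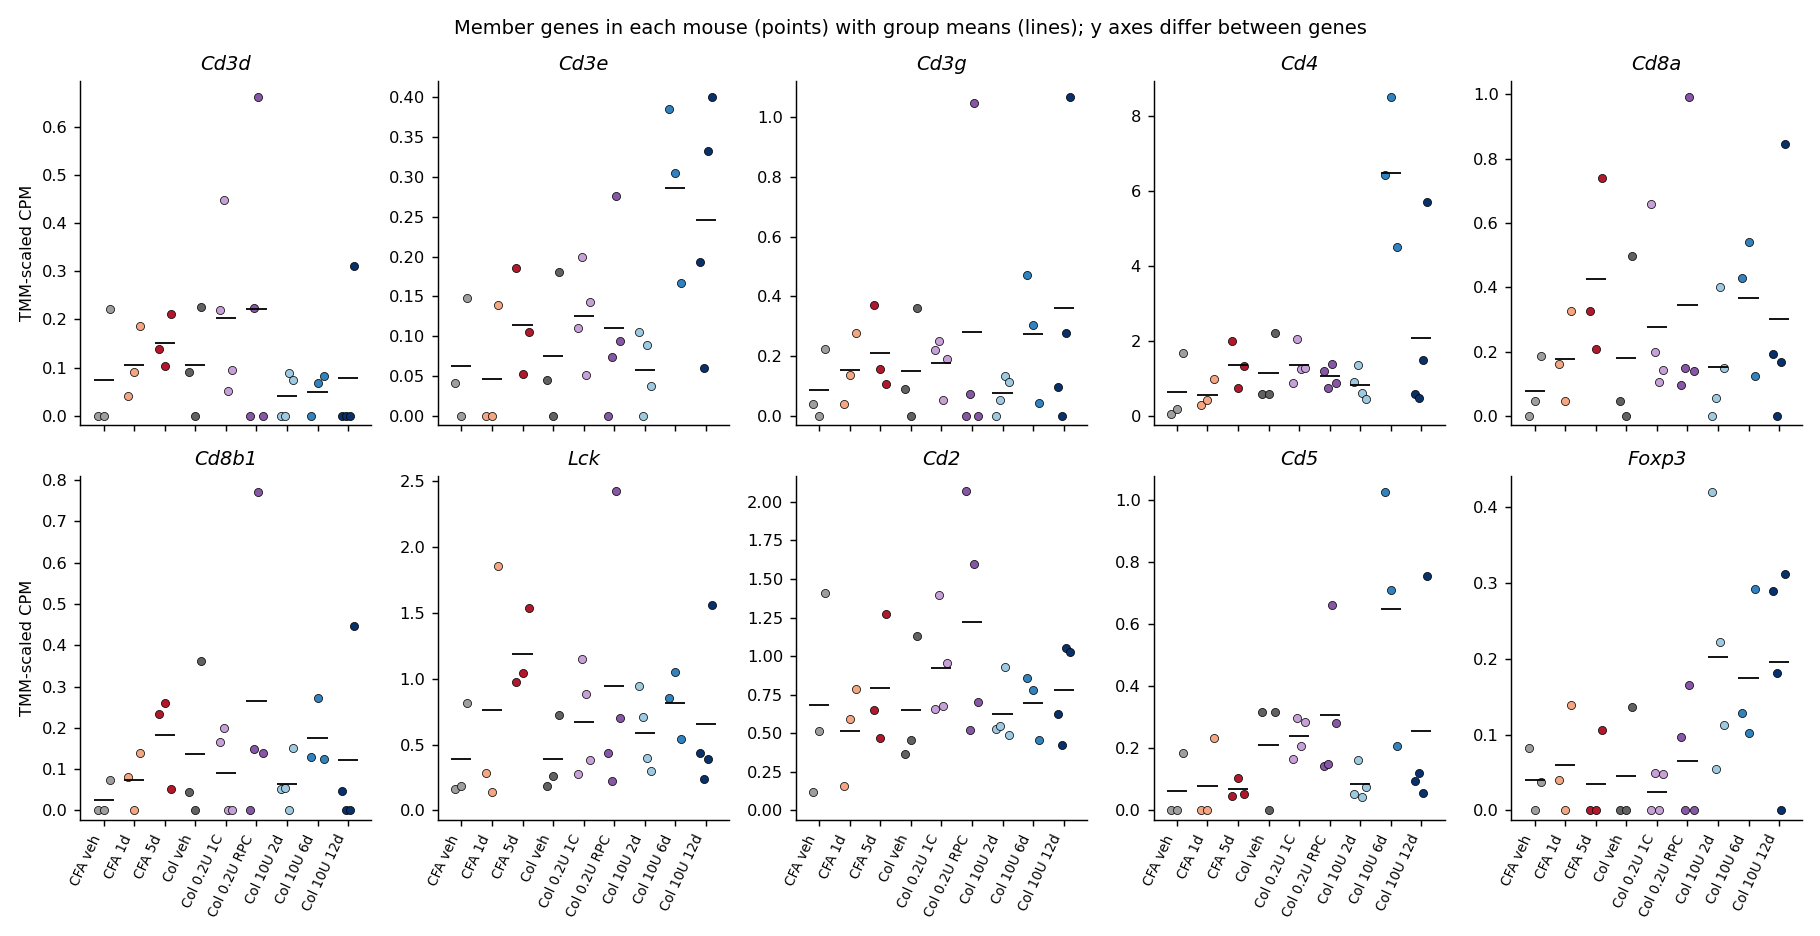
Level of each member gene (TMM-scaled CPM, y axes differ between genes) in each of 31 mice, shown as points, in the 9 groups, with lines at the group means. Cd4 in the 3 mice at 6d post-Col (10U) sits between 4.51 and 8.50 CPM, and the fourth 12d mouse, at 5.70 CPM, stands beside them.

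Some libraries stood apart. All 9 skeletal muscle markers were present in every library, but the summed level of 11 salivary gland markers ran from 11.1 to 290500 CPM. The third mouse of each vehicle group held most of the B cell, developing lymphocyte and bone marker reads of its group: the summed B cell markers were 32.7 CPM in that CFA vehicle mouse and 0.491 and 1.17 CPM in the others. The fourth 12d mouse had 732 CPM of bone and 1243 CPM of macrophage markers, against at most 210 and 361 CPM in the other 12d mice. The 11 libraries of 10U Col also differed from all 20 others, Col vehicle included, in their counts. Reads the counter called ambiguous made up 0.675% to 0.875% of counted and ambiguous reads together in them and 0.147% to 0.317% elsewhere, and 10 genes had at least 10 counts in all 11 and at most 3 in all 20. No member is among those genes. A change of 10U Col against Col vehicle cannot be told apart from this difference, and comparisons among the 10U days do not cross it.

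Cd4 was the member that edgeR called, and it was called at 6d post-Col (10U). The 3 mice at 6d had 150, 251 and 108 counts of Cd4, or 6.42, 8.50 and 4.51 CPM. The 4 mice at 2d had 0.893, 1.36, 0.621 and 0.450 CPM. All 3 mice at 6d were above all 4 at 2d. Cd4 rose from 2d to 6d by 2.95 on the log2 scale (SE 0.42, adjusted p = 0.00947, edgeR), from a mean of 0.832 CPM ± 0.399 (SD, n = 4) to 6.48 CPM ± 2.00 (SD, n = 3). It was the only one of 3 tested members called (Cd4, Lck and Cd2), where 8.73% of all 14513 tested genes were called in either direction and 12.9% had 6d values wholly above the 2d values. The call was lost without the second 6d mouse (log2 fold change 2.73, adjusted p = 0.0604) and was kept without each of the other mice. DESeq2 called Cd4 as well, and Cd5, which had at most 3 counts in any 2d mouse. In bulk tissue, more cells that carry Cd4 and more Cd4 RNA per cell cannot be told apart.

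Against Col vehicle, where Cd4 was at 0.592, 0.587 and 2.22 CPM, the 6d mice were also all higher. The log2 fold change was 2.47 (SE 0.59, adjusted p = 0.0224, edgeR). Cd4 was the only one of 4 tested members called here, in a comparison in which 27.3% of 14281 genes were called (28.9% with DESeq2, which also called Cd4 alone) and 25.1% of genes lay wholly above the vehicle mice. The call did not hold in every subset of mice. It was lost without the first Col vehicle mouse (log2 fold change 2.13, adjusted p = 0.0581), the first 6d mouse (2.49, 0.0719) or the second 6d mouse (2.25, 0.0900). Without the third Col vehicle mouse the log2 fold change was 3.44 (adjusted p = 0.00508), and Lck was then called as well (1.89, adjusted p = 0.0350), having passed the count filter only through the 6d mice, where it is high.

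At 12d the Cd4 values were 0.578, 0.483, 1.49 and 5.70 CPM. The fourth mouse lay within the range of the 6d group, and the other 3 lay below it. The log2 fold change from 6d to 12d was -1.61 (SE 0.77, adjusted p = 0.144, edgeR), and 0 of the 5 tested members were called. None of the 5 had an unadjusted p under 0.05 and DESeq2 called none, while 26.4% of all 14344 genes were called by edgeR and 29.3% by DESeq2. Without the fourth 12d mouse, the log2 fold change of Cd4 was -2.93 (adjusted p = 0.00118) and that of Lck was -1.19 (adjusted p = 0.0382). With group as the only factor, Cd4 was thus called only when this mouse was left out. Lck then passed the count filter only through the 6d mice, where it is high. Against Col vehicle, 0 of 2 tested members were called at 12d and 0 of 3 at 2d, with 1.23% and 2.22% of all genes called. No tested member had an unadjusted p under 0.05 in either comparison, and DESeq2 called none (4.95% of all genes at 12d and 18.3% at 2d).

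In the remaining groups Cd4 stayed within 0.0409 to 2.22 CPM. The 1C mice had 0.879, 2.04, 1.25 and 1.29 CPM, and the RPC mice 1.20, 0.745, 1.38 and 0.888 CPM. The CFA vehicle mice had 0.0409, 0.187 and 1.67 CPM, the 1d post-CFA mice 0.282, 0.411 and 0.975 CPM, and the 5d post-CFA mice 2.00, 0.729 and 1.32 CPM. By group mean the order was 10U 6d, 10U 12d (2.06 CPM), 1C (1.36), CFA 5d (1.35), Col vehicle (1.13), RPC (1.05), 10U 2d (0.832), CFA vehicle (0.632) and CFA 1d (0.556). Each group overlapped its neighbour in this order, 6d and 12d included. Per length, only the 6d group had a mean above 1 RPKM for Cd4 (1.61), and none of the other 9 members reached that mean in any group.

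Macrophage markers rose over the same days as Cd4 and neutrophil markers fell, while the summed dendritic cell markers of 2d and 6d overlapped. The summed level of 12 macrophage markers was 2328, 3312 and 1675 CPM in the 6d mice, with the highest value in the mouse that was highest for Cd4. It ran from 647 to 1656 CPM at 2d, from 168 to 543 CPM in Col vehicle and from 172 to 361 CPM in the first 3 of the 12d mice. Of these markers 11 of 12 were called higher at 6d against Col vehicle and 5 of 12 against 2d, and no marker was at 0 in any group. Over all genes, 27.3% were called against Col vehicle and 8.73% against 2d, in either direction. Over all 31 libraries, log2 Cd4 correlated with the log2 macrophage sum at Pearson's r = 0.752, and with the mean log2 level of the Cd3 genes at 0.605. Libraries that share a group and tissue make-up underlie both values. For single genes r was 0.267 (Cd3d), 0.775 (Cd3e) and 0.579 (Cd3g). These genes reached 10 counts in 1, 0 and 3 libraries and carry more counting error than the macrophage sum, so the values cannot be ranked. Of 10 dendritic cell markers, 5 were called higher against Col vehicle (Itgax, Ccl22, Clec9a, Xcr1 and Flt3) and 2 against 2d, and their sum was 36.0 to 46.3 CPM at 6d, 28.6 to 41.4 CPM at 2d and 16.3 to 24.0 CPM in Col vehicle. Xcr1 reached 10 counts in no vehicle mouse and was tested there only through the 6d mice. The summed level of 10 NK cell markers was 4.13 to 10.8 CPM at 6d, 3.26 to 5.28 CPM at 2d and 1.73 to 6.48 CPM in Col vehicle. Of these, 2 were called higher against Col vehicle (Klrd1 and Cd244) and 0 against 2d. Klrd1, with a mean of 0.112 CPM in Col vehicle, was tested there only through the 6d mice. Of 10 neutrophil markers, 7 were called lower at 6d against 2d and 5 against Col vehicle, with none higher, and their sum was 24.9 to 33.5 CPM at 6d, 131 to 463 CPM at 2d and 17.0 to 1635 CPM in Col vehicle. The neutrophil marker Retnlg, with a mean of 0.214 CPM at 6d, was tested against 2d only through the 2d mice, where it is high. Of 8 bone markers 3 were called lower in each comparison, as was the erythroid gene Alas2. Bglap, with a mean of 0.0534 CPM at 6d, was tested only through the 2d or Col vehicle mice, where it is high. Salivary gland markers also fell, from 52.3 to 119600 CPM at 2d to 11.1 to 33.8 CPM at 6d, and 8 of 11 were called lower. Among these 8, Dcpp1, Pip, Lpo, Bhlha15, Dcpp2 and Aqp5 had means of at most 0.116 CPM at 6d. They passed the count filter only through the 2d mice, where they are high. The summed skeletal muscle markers were 35970 to 65720 CPM at 6d, 31940 to 63510 CPM at 2d and 109600 to 166000 CPM in Col vehicle. Of these 9 markers, 3 were called lower at 6d against Col vehicle and 0 against 2d. The part of these cells and tissues in the Cd4 result was not tested.

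**Figure D2:**
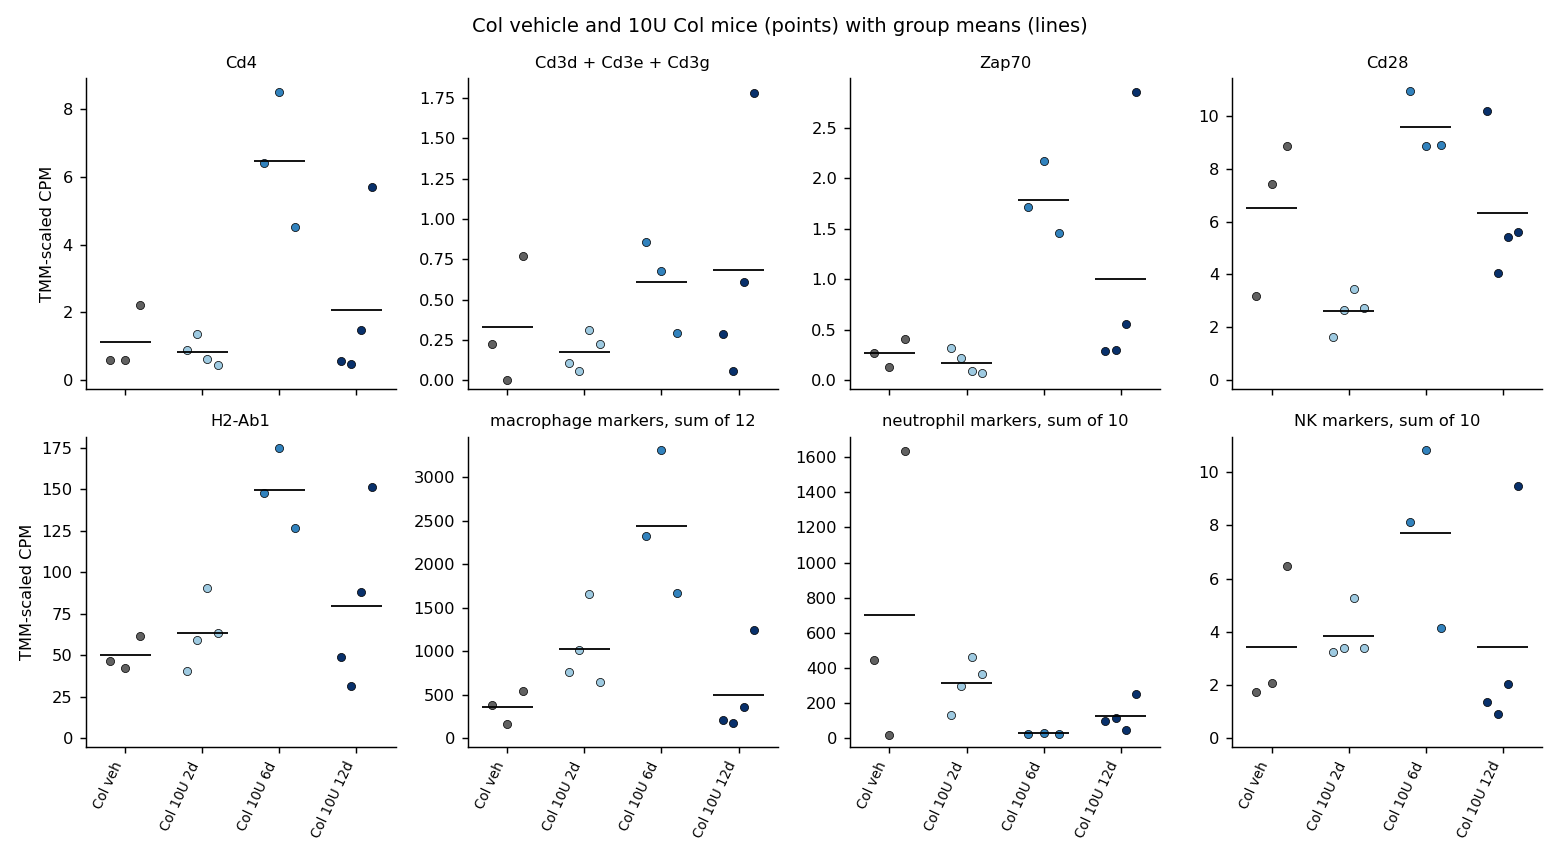
Levels (TMM-scaled CPM) of Cd4, the summed Cd3 genes, Zap70, Cd28, H2-Ab1 and 3 summed marker lists in each mouse (points) of Col vehicle and the 3 groups of 10U Col, with lines at group means. Cd4, Zap70 and H2-Ab1 are highest in the 6d group and in the fourth 12d mouse, and the macrophage markers are highest in the 6d group (1675 to 3312 CPM), followed by the third 2d mouse (1656 CPM), whereas the Cd3 values of 6d overlap those of the other groups.

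The CD3 chains held few counts at 6d, and none of them could be tested there. At 6d, Cd3d had 0, 2 and 2 counts, Cd3e had 9, 9 and 4 counts, and Cd3g had 11, 9 and 1 counts. Summed over the 3 genes this made 20, 20 and 7 counts, within the range of 0 to 40 counts seen in the other 28 libraries. The largest sums were 40 counts in the fourth 12d mouse, of which 24 were Cd3g, and 36 counts in the third RPC mouse, of which 19 were Cd3g. The other 3 RPC mice had 0, 5 and 2 counts. By group, the summed Cd3 level was 0.609 CPM ± 0.288 (SD, n = 3) at 6d, 0.174 CPM ± 0.116 (SD, n = 4) at 2d, 0.685 CPM ± 0.764 (SD, n = 4) at 12d and 0.333 CPM ± 0.395 (SD, n = 3) in Col vehicle. In the 2d group no mouse exceeded 3 counts of any Cd3 gene, which is the floor used here. Against that floor, the 6d mean was at least 2.02-fold higher for Cd3e and at least 1.92-fold higher for Cd3g, while Cd3d was at the floor in both groups. For Cd3e the 6d mice (0.385, 0.305 and 0.167 CPM) lay above all 2d mice (at most 0.105 CPM), as did 12.9% of the 14513 genes tested. They overlapped Col vehicle (up to 0.181 CPM). Cd3d and Cd3g at 6d overlapped 2d.

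Set against each other, Cd4 and the Cd3 genes differed most in proportion at 6d. Cd4 had 10.8 counts per Cd3 count over the 3 mice of 6d (509 against 47) and between 1.84 and 4.25 in each of the other 8 groups. The ratio was chosen after the values had been seen and was not tested. Per length, the mean of Cd4 was 9.80 times the mean of the 3 Cd3 genes at 6d and 1.55 to 4.38 times elsewhere. In single libraries the ratio was unstable, because the Cd3 sum was often 0 or close to it: 3 libraries had no Cd3 count, and 5 of the other 25 libraries outside 6d reached or passed the lowest ratio at 6d.

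**Figure D3:**
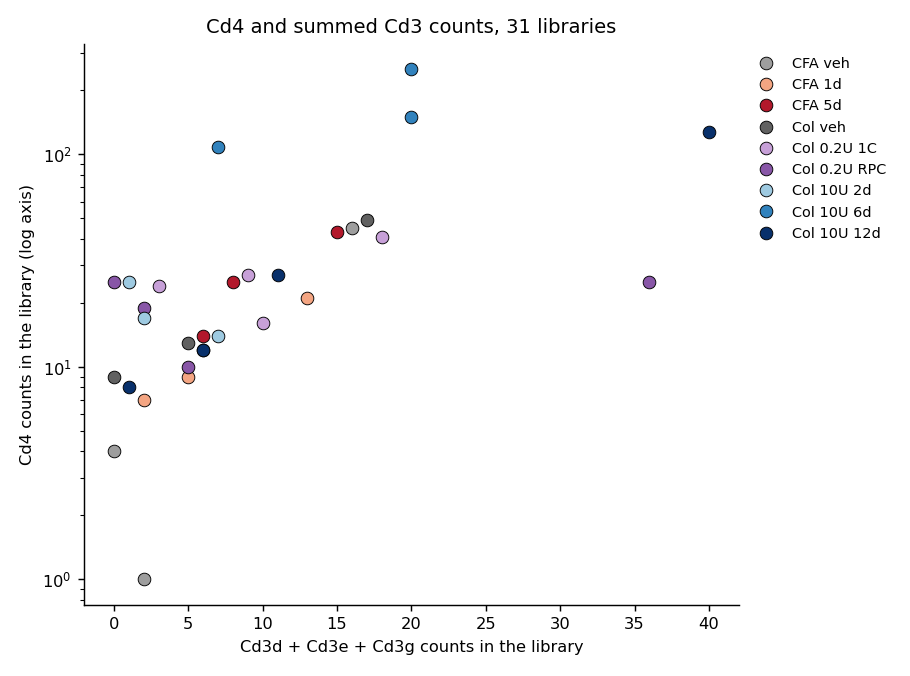
Cd4 counts (log axis) against the summed counts of Cd3d, Cd3e and Cd3g in each of the 31 libraries, coloured by group. The 3 libraries of 10U 6d, with 108 to 251 Cd4 counts, lie above libraries with like Cd3 sums, and the third RPC library has 36 Cd3 counts with 25 Cd4 counts.

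The genes of the CD8 coreceptor followed the Cd3 genes more than Cd4. Over the 31 libraries, Pearson's r with the mean log2 level of the Cd3 genes was 0.823 for Cd8a and 0.815 for Cd8b1, on counts that were mostly under 10. Cd8a had 10, 16 and 3 counts at 6d, 0, 1, 9 and 4 at 2d, 4, 0, 3 and 19 at 12d, and 1, 0 and 11 in Col vehicle. Its 6d values overlapped those of every other 10U day and of vehicle, and the log2 fold change against Col vehicle was not called (adjusted p = 0.537, edgeR). In the CFA experiment Cd8a had 7, 4 and 14 counts at 5d, 4, 1 and 7 at 1d, and 0, 1 and 5 in vehicle. In CPM, the 5d mice (0.326, 0.208 and 0.741) lay above the vehicle mice (0, 0.0469 and 0.185), but Cd8a held too few counts to be tested there. Of the 14026 genes tested, 11.9% lay wholly above the vehicle mice. Cd8b1 reached 10 counts in 2 libraries, the third RPC mouse with 14 and the fourth 12d mouse with 10. At 5d post-CFA its mean was at least 1.46-fold above the floor of CFA vehicle. Of the 50-base windows of Cd8b1 transcripts, 5.92% also occur in other genes, and those of the other members in none.

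Lck had its highest group mean at 5d post-CFA. Its values at 5d post-CFA were 0.977, 1.04 and 1.54 CPM, and those of CFA vehicle 0.164, 0.187 and 0.815 CPM. The groups did not overlap, as was the case with higher values for 11.9% of the 14026 genes tested. The log2 fold change of Lck was 1.61 (SE 0.68, adjusted p = 0.347, edgeR) and that of Cd4 was 1.10 (SE 1.05, adjusted p = 0.718). None of the 3 tested members was called at 5d post-CFA, where 1.11% of genes were called. Lck had the single unadjusted p under 0.05 (0.0470), and DESeq2 called none, against 5.10% of all genes. Without the third CFA vehicle mouse, Cd4 (log2 fold change 3.67, adjusted p = 0.00911) and Lck (2.82, adjusted p = 0.00573) were called. Both then passed the count filter only through the 5d mice, where they are high, so these calls are no support for a difference. The third vehicle mouse had 45 counts of Cd4, against 1 and 4 in the others, and 22 counts of Lck against 4 and 4. It also had 10.5 CPM of developing lymphocyte markers and 1011 CPM of neutrophil markers, against at most 0.0469 and 16.6 CPM in the others, and the part of these cells in its Cd4 and Lck counts was not tested. The groups differed in other tissue as well: the summed salivary gland markers were 132300 to 166400 CPM in the 5d mice and 106, 115 and 15360 CPM in CFA vehicle, and the summed NK cell markers were 5.93 to 12.6 CPM and 0.286 to 5.19 CPM. None of these markers was called, and their part in the values of Lck, Cd4 and Cd8a at 5d was not tested.

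At 1d post-CFA the third mouse again stood out for Lck, with 1.86 CPM against 0.282 and 0.137 CPM in the others. Only Cd2 could be tested there and was not called (adjusted p = 0.971, edgeR), its unadjusted p was 0.632, and DESeq2 called no member. Of 13944 genes edgeR called 0.00%, and DESeq2 called 0.349% of those it tested. In the Col experiment, Lck was at 0.182, 0.261 and 0.725 CPM in vehicle, 0.945, 0.709, 0.399 and 0.300 CPM at 2d, and 0.856, 1.05 and 0.543 CPM at 6d. These groups overlap, and at 6d the log2 fold change against vehicle was 1.03 (SE 0.60, adjusted p = 0.225, edgeR). At 12d the values were 0.434, 0.242, 0.387 and 1.56 CPM, with the highest again in the fourth mouse.

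In the 0.2U groups the spread among mice was larger than the difference from vehicle. Lck in the RPC mice was 0.434, 0.223, 2.43 and 0.701 CPM, and the third mouse, which led the Cd3 genes, Cd8a and Cd8b1, held the highest level of Lck in the series. The log2 fold change against Col vehicle was 1.27 (SE 0.89, adjusted p = 0.536, edgeR). The 1C mice had 0.275, 1.15, 0.882 and 0.382 CPM of Lck. None of the 3 tested members was called in 1C or in RPC and none had an unadjusted p under 0.05, and edgeR called 0.00% of all genes in both. DESeq2 called no member in 1C (2.84% of all genes) and gave no adjusted p for any member in RPC (2.12% of all genes called). With both vehicle groups pooled and the third mouse of each left out, a setting added after the data had been seen, Cd2 was called in RPC (log2 fold change 1.83, adjusted p = 0.0481). The vehicle mice left out were the highest for Cd2 (1.41 and 1.13 CPM, against at most 0.515 CPM in those kept). This call is therefore no support for a difference.

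Cd2 was tested in all comparisons and called in none of them, apart from the pooled setting just given. Its group means ran from 0.515 CPM ± 0.321 (SD, n = 3) at 1d post-CFA to 1.22 CPM ± 0.736 (SD, n = 4) in RPC, and all 9 groups overlapped their neighbours. The first and the third RPC mice were highest, with 2.07 and 1.60 CPM. From 2d to 6d post-Col (10U), over which Cd4 rose, the log2 fold change of Cd2 was 0.15 (SE 0.41, adjusted p = 0.860) and that of Lck 0.48 (SE 0.49, adjusted p = 0.592, edgeR).

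**Figure D4:**
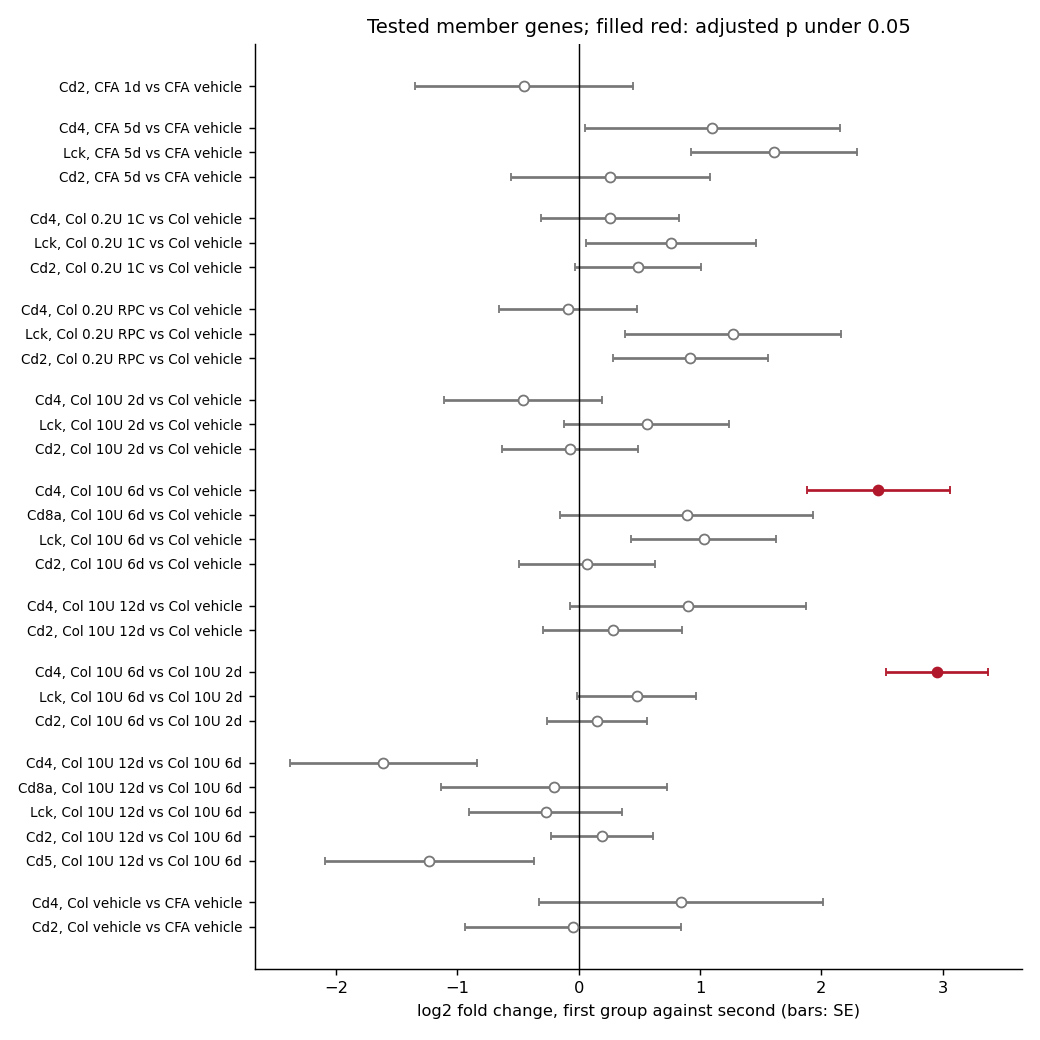
Log2 fold changes of the members that could be tested in each of 10 comparisons (x axis, first group against second; bars are standard errors). The filled red points, adjusted p under 0.05, are Cd4 at 6d post-Col (10U) against 2d and against Col vehicle, at 2.95 and 2.47.

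Cd5 had 24, 21 and 5 counts at 6d and 1, 3, 1 and 2 counts at 2d post-Col (10U). All 6d mice were above all 2d mice (1.03, 0.711 and 0.209 CPM against at most 0.164 CPM), and the 6d mean was at least 4.58-fold above the floor of the 2d group. Of the 14513 genes tested, 12.9% lay wholly above the 2d mice. With 10 counts in only 2 of these 7 libraries Cd5 was not tested by edgeR. DESeq2, which was run without that filter, called it (log2 fold change 2.97, adjusted p = 0.0136) and called 15.1% of the genes with a p-value. Cd5 was at the floor in the 2d group and reached 10 counts only in 6d mice, where it is high. The DESeq2 call therefore rests on the same 6d values. The Col vehicle mice had 7, 0 and 7 counts, which overlap the 6d group in CPM. At 12d Cd5 had 2, 2, 1 and 17 counts, and the log2 fold change from 6d was -1.23 (SE 0.86, adjusted p = 0.296, edgeR). After CFA Cd5 had at most 5 counts in any mouse.

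Foxp3 was at or near the floor in every group. It had 8 counts or fewer in all libraries and none in 11 of them. The 10U Col mice had 8, 1, 5 and 3 counts at 2d, 3, 3 and 7 at 6d, and 6, 3, 0 and 7 at 12d, whereas no library of the other 6 groups had more than 3. The means at 2d, 6d and 12d were at least 1.30-fold, 1.12-fold and 1.25-fold above the floor of Col vehicle. These are the libraries whose counting differed, and counts of Ccdc22 on the opposite strand ran from 162 to 318 in them and from 267 to 676 in the other 20, so whether the Foxp3 counts are Foxp3 transcripts was not tested.

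Among other genes of the receptor machinery, Zap70 and Cd28 were called from 2d to 6d. Of 30 genes for T cell receptor signalling and costimulation (the members not counted), 18 could be tested at 6d against 2d, and 2 were higher and 0 lower, beside 8.73% of all genes called in either direction. The median log2 fold change was 0.43 in the list and -0.04 over all genes. Zap70, the kinase that docks on the CD3 and zeta chains, had a log2 fold change of 3.35 (SE 0.51, adjusted p = 0.0119), with 40, 64 and 35 counts at 6d and 6, 4, 2 and 2 at 2d. It reached 10 counts only in the 6d mice, in this comparison and against Col vehicle, so it was tested only because it is high there. Cd28, the costimulatory receptor, rose by 1.84 (SE 0.28, adjusted p = 0.0114), from 1.63 to 3.46 CPM at 2d to 8.87 to 10.9 CPM at 6d. The Col vehicle mice had 3.19, 7.44 and 8.88 CPM of Cd28, which overlap the 6d group, and Cd28 was not called at 6d against them. With 1 mouse left out, Cd28 was called in 5 of 7 subsets, its call being lost without the first or the second 6d mouse (highest adjusted p = 0.0603, edgeR). Cd28 had 137 to 294 counts in CFA vehicle, where the Cd3 genes summed to 0 to 16.

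Against Col vehicle, 4 of 18 tested genes of that list were higher at 6d and 0 lower (median 0.89), beside 27.3% of all genes called. Among them were Zap70 (log2 fold change 2.65), the kinase Fyn (1.05) and Cd247 (0.82), and the call of Cd247 was lost in all 6 subsets with 1 mouse left out. Cd247 had 188, 239 and 170 counts at 6d but 305, 372 and 69 in CFA vehicle, and its log2 fold change was -0.34 with both vehicle groups pooled and the third mouse of each left out. A gene on the opposite strand also overlaps an exon of Cd247. At 12d against 6d, Ptpn6 (log2 fold change -2.45) and Lcp2 (-1.78) were lower and Cd247 (0.51) higher among 18 tested, with calls lost in 5, 6 and 6 of the 7 subsets with 1 mouse left out. In this comparison 26.4% of all genes were called. In both CFA groups and both 0.2U groups 0 of 16 or 17 tested genes of the list were called.

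Transcription factors and homing receptors of T cells split in direction. Of 20 genes, 16 were tested at 6d against Col vehicle, 3 were higher and 4 lower, beside 27.3% of all genes called. Those that rose included the cytokine receptor chain Il2rg (log2 fold change 2.37) and the transcription factor Tcf7 (1.43), and those that fell included Klf2 (-1.38), Il2ra (-1.14) and S1pr1 (-0.99). Klf2 and S1pr1 are also made by endothelial cells, and S1pr1 was at 168 CPM ± 23.1 (SD, n = 3) in vehicle muscle. Against 2d the single call was S1pr1 (-0.77, adjusted p = 0.0401), which was lost in 6 of 7 subsets with 1 mouse left out. There 8.73% of all genes were called. From 6d to 12d, 4 of these 16 genes were higher (Klf2, Bcl11b, Il2ra and S1pr1) and 2 lower (Lef1 and Il2rg), of which Lef1 reached 10 counts only in the 6d mice. Over those days 26.4% of all genes were called.

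Genes tied to regulatory T cells gave no common direction. Of 12, with Foxp3 itself not counted, 5 were tested at 6d against Col vehicle, where 27.3% of all genes were called. Tnfrsf18, the receptor GITR, was called higher (3.04, SE 0.43, adjusted p = 0.00508) but reached 10 counts only in the 6d mice, where it is high. Also higher was Lrrc32 (0.82), and Il2ra and Ikzf2 (-0.99) were lower. None of the 5 was called against 2d. Of 11 T cell cytokine genes, 2 at most could be tested in any comparison and 0 were called.

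For the MHC ligands of the coreceptors, all 8 genes of the list could be tested. At 6d, 5 were higher against Col vehicle and 4 against 2d, with none lower, beside 27.3% and 8.73% of all genes called. All of these were class II genes, Cd74 or Ciita, and the class I genes H2-K1, H2-D1 and B2m were not called in either comparison. B2m was lower at 12d than at 6d (-0.82, adjusted p = 0.0464, edgeR), where 26.4% of all genes were called. H2-K1 was called in the 6d change minus the 5d post-CFA change, each against its own vehicle (-2.35, adjusted p = 0.0191, edgeR), with 11.3% of all genes. H2-Ab1, a chain of the MHC class II molecule bound by CD4, was at 148, 175 and 127 CPM at 6d, at 40.3, 59.3, 90.3 and 63.3 CPM at 2d, and at 46.4, 42.7 and 61.7 CPM in Col vehicle. Its log2 fold change was 1.22 (SE 0.26, adjusted p = 0.0332) against 2d and 1.57 (SE 0.22, adjusted p = 0.00481) against vehicle. The first of these calls was lost in 5 of 7 subsets with 1 mouse left out, the second in 0 of 6. H2-Aa (1.39), Cd74 (1.26) and H2-Eb1 (1.22) rose with it from 2d to 6d, and Ciita, the activator of class II genes, rose against vehicle (1.82). At 12d the fourth mouse had 151 CPM of H2-Ab1 and the others 31.5 to 88.3 CPM. At 5d post-CFA the median log2 fold change of the 8 genes was 1.41, against -0.02 over all genes, with 0 called.

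The change of Cd4 at 6d post-Col (10U) was not shown to differ from that at 5d post-CFA. The difference of the effects, each against its own vehicle, was 1.38 for Cd4 (SE 1.32, adjusted p = 0.518, edgeR) and -1.47 for Cd8a (SE 1.60, adjusted p = 0.574). Of 4 tested members 0 were called, none had an unadjusted p under 0.05, and DESeq2 called none, while 11.3% of 14892 genes were called by edgeR and 14.7% by DESeq2. Each direction turns with 1 library: Cd4 was at -1.20 without the third CFA vehicle mouse and Cd8a at 1.18 without the third Col vehicle mouse. Between the vehicle groups neither tested member, Cd4 or Cd2, was called (lowest adjusted p = 1, edgeR), none had an unadjusted p under 0.05, and DESeq2 called none. Of 14070 genes, edgeR called 0.0426% and DESeq2 called 0.408%.

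Across all 31 libraries, the levels of 15526 genes were compared with the mean of the Cd3 genes on log2(CPM + 0.5). Among the 10 genes outside the member list that were most like it were Ccl5 (Pearson's r = 0.762), Gimap3 (0.745), Ccr7 (0.741), Il2rb (0.732), Ms4a4b (0.728), Prf1 (0.698), Cxcr3 (0.682) and H2-M2 (0.664). The 2 libraries with the largest Cd3 sums were the fourth 12d mouse and the third RPC mouse. Among members, Cd5 (0.776) and Cd3e (0.775) were most like Cd4, and Cd3d was least like it among the Cd3 genes (0.267).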

How the data were processed

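Libraries were stranded and poly(A)-selected, and reads were single-end with 50 bases. The submitters' processing notes name bcl2fastq, TopHat2, HTSeq and build mm9, without versions, and whether counting used strand is not given in the sources used here. The authors deposited 1 table of raw counts per mouse, with no normalization or filter. Lines for reads assigned to no gene were left out of library sizes, and made up 41.7% to 58.9% of all lines. No 2 libraries of 465 pairs were identical. Groups, replicate numbers and days come from the labels, and the study's text gives other days for the groups labelled 2d and 12d. Vehicle mice of the collagenase experiment were identified by exclusion from a title that reads control. P-values measure the spread between these mice.

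The members and gene lists were chosen with earlier results of these data known. The test was the quasi-likelihood F test of edgeR 4.0.16 in R 4.3.3, with TMM scaling and group as the only factor. It took genes that reached 10 counts in 3 or more of the compared libraries, and p was adjusted over all of them by Benjamini-Hochberg. The standard error was obtained as |log2 fold change| over the root of F. The comparisons with Col vehicle share its 3 mice, and those with CFA vehicle share its 3 mice. A group with at most 3 counts in every library was taken as at a floor of 3 counts per library. RPKM used exon lengths of GENCODE vM1. All members were named, with fold changes where called or at least 1 in size, and up to 4 called genes per list. Same-numbered mice deviated together (r = 0.129, 0.222 and 0.425) between CFA 1d and CFA vehicle, and between the vehicle groups (0.163, 0.107 and 0.603), although they are different animals. The replicate block changed no call of a member there. Alternatives were DESeq2 1.42.0, its size factors in edgeR, no filter, a filter over all 31 libraries, a shared fit, pooled vehicle groups, the replicate block, the study's thresholds and each mouse left out. The scripts were tested on simulated data. T cell receptor alpha and beta chains were not analysed here. Results for some genes of the lists are not reported here.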

Additional observations from a re-analysis of the deposited data

Results flagged for a closer look

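In groups of 4 mice, 7 of 40 sets of member values had a single mouse far from the others by Dixon's ratio at the 95% level. Chance gives about 1 in 20 such sets for independent, normally distributed values, which these low counts are not, and 4 of the 7 come from 1 mouse. The fourth 12d mouse after 10U Col was highest for Cd3d (0.312 CPM, from 7 counts, with 0 in the others), Cd8b1 (0.445 CPM, 10 counts), Lck (1.56 CPM, 35 counts) and Cd5 (0.757 CPM, 17 counts). The third RPC mouse was highest for Cd3g (1.05 CPM, 19 counts) and Cd8a (0.992 CPM, 18 counts). The third 2d mouse after 10U Col was highest for Cd2 (0.932 CPM, 21 counts).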

How the results depend on the processing

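The number of members called was recomputed in 167 combinations of comparison and setting and moved in 12 of them. With the replicate block, 0 members were called at 10U 6d against Col vehicle (Cd4 at 2.72, adjusted p = 0.0602) and 2 at 12d against 6d (Cd4 at -2.91 and Cd5 at -2.73). In these comparisons same-numbered mice did not deviate together, and the block changed no other call of a member. DESeq2 called 2 members at 6d against 2d. With vehicle groups pooled and the third mouse of each left out, 2 members were called at 10U 6d and 1 in RPC. With each mouse left out, members called ranged from 0 to 2 at CFA 5d, 10U 6d against vehicle and 12d against 6d, and from 0 to 1 at 6d against 2d. Cd4 at 6d against 2d ranged from 2.73 to 3.30 over left-out mice and from 2.76 to 2.97 over the other alternatives (adjusted p from 1.20e-09 to 0.0604 over all). Directions turned for Cd247 at 10U 6d (-0.34, pooled vehicle groups without the third mice) and for the differences of effects, which over left-out mice ranged from -1.20 to 2.35 for Cd4 and from -3.17 to 1.18 for Cd8a. Other changes of the named genes of the lists were losses of a call, in 467 of 1573 combinations. The cause was not tested. At 10 counts or fewer the counting error alone is 31.6% or more.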

Other observations

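The difference in counting between the 10U Col libraries and the rest was seen most plainly in 2 genes outside the lists, chosen after their values were seen. Gm5088 had 513 to 1002 counts in each of the 11 libraries of 10U Col and at most 1 in the other 20, and C230091D08Rik had 451 to 852 and at most 2. Of the 10 genes that separate the libraries in this way, 8 were found in the annotation and 4 of them overlap a gene on the opposite strand, against 27.7% of all annotated genes. Another 2 genes had at least 10 counts in all 20 and at most 3 in all 11.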
